A study of Rattus norvegicus with 12 samples.

Results

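The calpain family was followed in cells of the rat inner medullary collecting duct (IMCD) grown in primary culture. This epithelium lines the last stretch of the urine-forming tubule, deep in the kidney, and is bathed in concentrated interstitial fluid. Of 14506 genes that could be named on the array, 8 were members: the proteases Capn1, Capn2, Capn5, Capn6, Capn7 and Capn10, the small regulatory subunit Capns1 and the inhibitor calpastatin, Cast. They were taken by gene symbol, with the brightest probe set of a gene standing for it. Capn6 was chosen by its higher values at 300 mOsm/kg on these same arrays, so its levels at the 2 osmolalities are a description and carry no test. The other 7 members were taken as relatives of Capn6 and were tested.

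The cells came from kidneys of male SD rats aged 7 weeks. All cultures were first held at 640 mOsm/kg for 4 d, then either stepped down to 300 mOsm/kg or left at 640 mOsm/kg for 24 h or 48 h. Each of the 4 groups (24 h at 640, 24 h at 300, 48 h at 640, 48 h at 300) had 3 arrays, and the labels leave unsaid whether an array stands for its own animal or culture. The p-values therefore rest on a spread between arrays that may be technical. Total RNA was hybridised to Affymetrix Rat Gene 1.0 ST arrays, which probe whole transcripts. All values are log2 expression levels, so a difference of 1 is a doubling, and levels of different probe sets are not comparable with each other.

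Calpains are calcium-dependent cysteine proteases of the cytosol that cut chosen proteins at few sites rather than degrading them. The classical enzymes are heterodimers of a catalytic large subunit, Capn1 or Capn2, with Capns1, and calpastatin binds and blocks the active dimer. Capn6 is an unusual relative: it lacks the active-site cysteine, binds and stabilises microtubules, and is known from placenta and embryonic muscle. Capn5, Capn7 and Capn10 are widely expressed members without the calmodulin-like domain of the classical enzymes.

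Rat Capn6 lies on chromosome X (RefSeq, build GRCr8, 112177467 to 112202178, minus strand). The 250 bases before its annotated start, chrX:112202179-112202428, are shown because Capn6 is the member whose level moved. Capitals mark matches to TGGAAA, the core of the tonicity-responsive enhancer bound by Nfat5 (here on the opposite strand, written TTTCCA), and to TGANTCA, the AP-1 site.
Capn6: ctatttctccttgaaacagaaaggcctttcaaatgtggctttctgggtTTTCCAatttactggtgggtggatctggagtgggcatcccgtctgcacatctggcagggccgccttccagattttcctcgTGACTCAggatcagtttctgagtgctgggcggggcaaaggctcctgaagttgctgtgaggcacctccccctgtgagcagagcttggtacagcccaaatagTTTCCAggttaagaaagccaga
TGGAAA matched at bases 202 to 197 and 22 to 17 before the start, and TGANTCA at bases 122 to 116. Neither the full tonicity-responsive enhancer consensus nor a CArG box, the site of serum response factor, was found in this window. These motifs were chosen after the sequence had been seen, and both strands were searched. Among 33469 RefSeq rat promoters of the same length, 19.7% held TGGAAA, 6.34% held TGANTCA, 5.169% held the full consensus and 1.497% held a CArG box. The promoter table held 6 of the 8 members, and TGGAAA was found in 1 of them, Capn6, and TGANTCA in 2, Capn6 and Capns1 (bases 44 to 38). A match is only a run of letters and shows no binding.

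Array medians bear on every level given here. On the 6 arrays at 48 h they lay between 6.81 and 6.97. At 24 h they reached 7.57 and 7.58 in the groups at 640 and 300 mOsm/kg, but were 6.90 on replicate 3 at 640 and 6.89 on replicate 1 at 300. Values are therefore also given after each array was centred on its median over all genes. Centring shifted the size of changes between times far more than that of changes between osmolalities. It also moved the number of genes called in limma. For osmolality this went from 13 to 95 at 24 h and from 104 to 269 at 48 h. For time it went from 0 to 20 at 640 and from 0 to 37 at 300 mOsm/kg. Correlations between arrays over all genes ranged from 0.976 to 0.995, and no 2 arrays were identical. For the labelled cell type 11 principal cell markers were read, all measured. Their changes with osmolality are given here and do not verify the label. In limma 1 of the 11 was called at 24 h and 4 at 48 h, all lower at 300 mOsm/kg, against 0.0896% and 0.717% of all genes. The medians were -0.40 and -0.49, with 1 and 2 of the 11 above 0. Aqp2, the vasopressin-regulated water channel, fell by 3.63 ± 0.318 (SE) at 24 h and fell by 4.41 ± 0.318 at 48 h (limma, adjusted p = 0.000172 and 1.29e-05). Aqp3, Avpr2 and Slc14a2, a basolateral water channel, the vasopressin receptor and the urea transporter, also fell at 48 h.

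Capn6 was higher at 300 than at 640 mOsm/kg at both times, and the gap was wider at 48 h. At 24 h the 3 arrays at 640 mOsm/kg read 5.52, 5.59 and 5.17, a mean of 5.43 ± 0.229 (SD, n = 3). Those at 300 mOsm/kg read 6.21, 6.52 and 6.94, a mean of 6.55 ± 0.367 (SD, n = 3). Every array at 300 mOsm/kg thus lay above every array at 640 mOsm/kg, and the means differed by 1.13 ± 0.258 (SE), or 2.18-fold. At 48 h Capn6 read 5.83, 5.33 and 6.19 at 640 mOsm/kg, a mean of 5.79 ± 0.432 (SD, n = 3). It read 8.30, 7.80 and 8.20 at 300 mOsm/kg, a mean of 8.10 ± 0.262 (SD, n = 3). The groups were again apart, by 2.32 ± 0.258 (SE), or 4.98-fold.

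Placed among all 14506 genes by signed change, from the largest rise down to the largest fall, Capn6 was number 20 from the top at 24 h and number 1 at 48 h. Its change was 1.19 ± 0.365 (SE) greater at 48 h than at 24 h, number 3 from the top for that difference. Centring the arrays left the changes at 1.11 and 2.32. Replicate 1 at 300 mOsm/kg and replicate 3 at 640 mOsm/kg, the low-median arrays at 24 h, differed by 1.04, and the means of the other 4 arrays differed by 1.17. Over every alternative run, leaving out each array in turn included, the change ranged from 0.935 to 1.30 at 24 h and from 2.09 to 2.52 at 48 h. The array has a lone probe set for Capn6, so no other probe set of the gene could be set beside it.

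**Figure D1:**
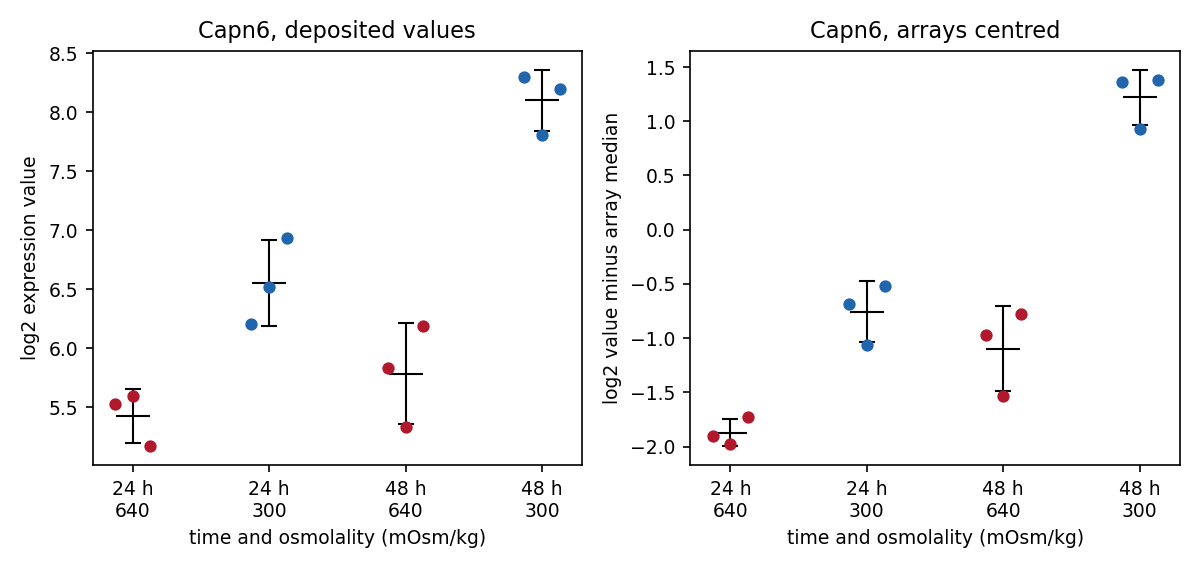
Capn6 in the 4 groups, as deposited log2 values (left) and after subtraction of each array's median (right). Points are arrays (3 per group, 640 mOsm/kg red, 300 mOsm/kg blue), horizontal bars the mean and whiskers the SD; the 48 h arrays at 300 mOsm/kg, between 7.80 and 8.30 as deposited, stand above all others on both scales.

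In order of mean level Capn6 was highest at 48 h and 300 mOsm/kg (8.10), then at 24 h and 300 (6.55), 48 h and 640 (5.79) and 24 h and 640 (5.43). The neighbouring groups at 24 h and 300 and at 48 h and 640 nearly touched, with a lowest array of 6.21 in the one and a highest of 6.19 in the other. The groups at 640 mOsm/kg overlapped as deposited. With arrays centred both of these readings changed. The groups at 24 h and 300 (-1.07 to -0.52) and at 48 h and 640 (-1.54 to -0.78) then overlapped. The group at 24 h and 640 (-1.98 to -1.73) then lay below that at 48 h and 640. From 24 h to 48 h Capn6 changed by 1.55 ± 0.258 (SE) at 300 mOsm/kg, number 2 from the top of all genes, and by 1.98 ± 0.216 with arrays centred. This is a description, since it rests on the arrays that chose the gene. At 640 mOsm/kg its change with time was 0.36 ± 0.258 (SE), with overlapping arrays, and 0.77 ± 0.216 after centring, without overlap. It is likewise given without a test, since the arrays at 640 mOsm/kg are part of the comparisons for which Capn6 was picked.

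No change of the classical calpain subunits passed in the unpaired limma fit. Over all genes, deviations of replicates 1, 2 and 3 at 640 correlated best with those of replicates 3, 2 and 1 at 300 mOsm/kg. These correlations were 0.576, 0.844 and 0.825 at 24 h and 0.631, 0.795 and 0.780 at 48 h. Overlap and standard errors can thus hold spread shared between the osmolalities, which an unpaired fit does not remove. Capn1, the catalytic subunit of mu-calpain, had the lowest values at 48 h and 300 mOsm/kg. Its arrays at 48 h read 10.68, 10.45 and 10.72 at 640 mOsm/kg and 10.04, 9.84 and 10.01 at 300 mOsm/kg. These groups did not overlap, and their difference was -0.65 ± 0.238 (SE), with a 95% interval of -1.16 to -0.14. It had an unadjusted p of 0.0159 but an adjusted p of 0.605 (limma, Benjamini-Hochberg over all genes). With arrays centred the difference was again -0.65, the standard error was 0.168 and the adjusted p 0.0718, and over all alternatives the lowest adjusted p was 0.0615. The groups of Capn1 overlapped at 24 h, where it read 11.17, 10.90 and 10.41 at 640 mOsm/kg and 10.08, 10.60 and 10.85 at 300 mOsm/kg. That difference was -0.32 ± 0.238 (SE). For Capn1 the low-median arrays at 24 h differed by -0.33, and the means of the other arrays at 24 h by -0.31. The change at 48 h minus that at 24 h was -0.33 ± 0.337 (SE; limma, adjusted p = 1.00).

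Capn2, the catalytic subunit of m-calpain, read 11.32, 11.39 and 11.17 at 24 h and 640 mOsm/kg and 10.94, 11.16 and 11.33 at 300. At 48 h it read 10.85, 10.72 and 11.31 at 640 and 11.03, 10.55 and 10.60 at 300. Groups overlapped at both times, with differences of -0.15 ± 0.214 and -0.23 ± 0.214 (SE). Capns1, the small subunit shared by both enzymes, read 12.46, 12.76 and 11.65 at 24 h and 640 mOsm/kg and 11.69, 12.66 and 12.47 at 300. Its 48 h values were 12.20, 12.18 and 12.02 at 640 and 11.88, 12.05 and 12.12 at 300. The lowest Capns1 values at 24 h were those of the 2 low-median arrays, and the osmolality differences were -0.02 ± 0.287 and -0.11 ± 0.287 (SE). A dimmer probe set of Capns1 differed by -0.02 and -0.17. Calpastatin read 9.77, 10.25 and 9.23 at 24 h and 640 mOsm/kg and 9.12, 10.25 and 9.69 at 300. Its 48 h values were 8.97, 9.42 and 9.57 at 640 and 9.46, 9.37 and 9.03 at 300. The inhibitor thus overlapped fully between osmolalities, with differences of -0.06 ± 0.305 and -0.03 ± 0.305 (SE).

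As deposited, the atypical members also overlapped between osmolalities at both times. Capn5, which ends in a C2 domain, read 10.23, 10.29 and 9.63 at 24 h and 640 mOsm/kg and 9.54, 10.20 and 10.08 at 300. At 48 h its values were 9.51, 9.03 and 9.64 at 640 and 9.48, 8.92 and 9.42 at 300. The osmolality differences of Capn5 were -0.11 ± 0.261 and -0.12 ± 0.261 (SE). With arrays centred its 24 h arrays did not overlap, at 2.72 to 2.80 for 640 and 2.62 to 2.65 for 300 mOsm/kg, and the difference was -0.12 ± 0.188 (SE). Capn7, a relative with an N-terminal domain that binds the membrane-remodelling ESCRT machinery, read 9.10, 9.14 and 8.68 at 24 h and 640 mOsm/kg and 8.45, 9.08 and 9.11 at 300. At 48 h it read 8.16, 8.58 and 8.77 at 640 and 8.55, 8.56 and 8.06 at 300. Its osmolality differences were -0.10 ± 0.247 and -0.11 ± 0.247 (SE). Capn10, known from genetic studies of diabetes, read 8.43, 8.22 and 8.02 at 24 h and 640 mOsm/kg and 7.94, 8.15 and 8.38 at 300. At 48 h the values were 8.06, 7.35 and 7.81 at 640 and 7.89, 7.39 and 8.16 at 300. Its differences were -0.07 ± 0.246 and 0.08 ± 0.246 (SE).

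**Figure D2:**
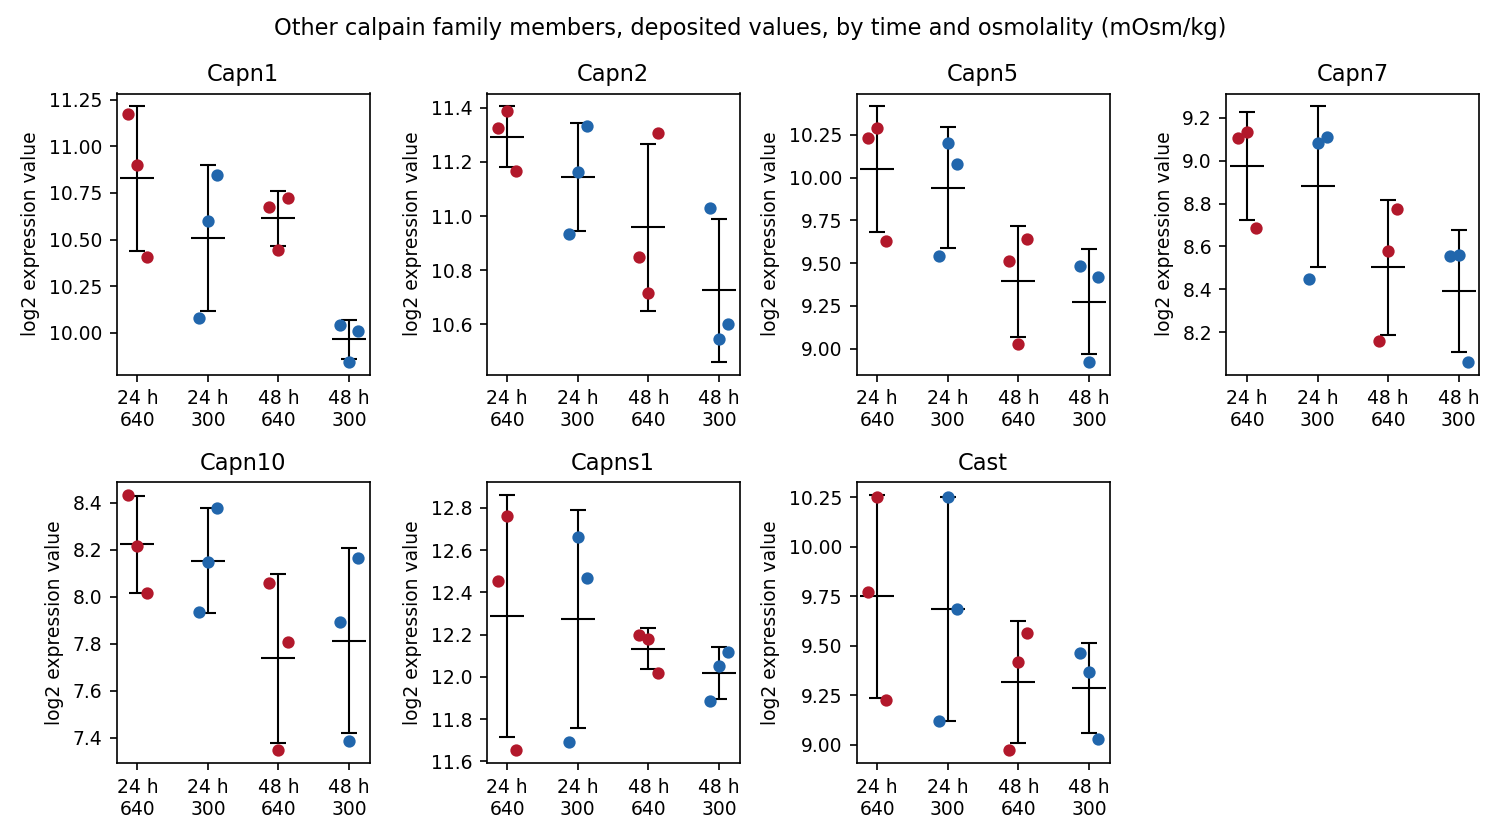
Deposited log2 levels of the other 7 calpain family members by time and osmolality, with a separate axis for each gene. Points are arrays (3 per group, 640 mOsm/kg red, 300 mOsm/kg blue), horizontal bars the mean and whiskers the SD; apart from Capn1 at 48 h, the red and blue points of a time overlap in every panel.

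Of these 7 members, 0 passed an adjusted p of 0.05 at 24 h in limma, and 0 had an unadjusted p under 0.05. Over all genes 0.0896% passed at 24 h, and 421 genes (2.90%) had an unadjusted p under 0.05. At 48 h again 0 of 7 passed and 1, Capn1, had an unadjusted p under 0.05, against 0.717% of all genes called and 687 genes with an unadjusted p under 0.05. With arrays centred, 0 of 7 passed at either time, against 0.655% and 1.85% of all genes. Groups did not overlap for 0 of the 7 at 24 h and for 1 at 48 h, against 4.27% and 13.8% of all genes. Centred, it was 1 of 7 at each time, Capn5 and then Capn1, against 8.56% and 14.8%. The median change of the 7 was -0.10 at 24 h and -0.11 at 48 h, where those of all genes were -0.02 and 0.02. The difference between the times' changes passed for 0 of 7, with 0 unadjusted (limma), and for 0% of all genes, of which 64 had an unadjusted p under 0.05. The 95% intervals of the 7 lay within -0.83 to 0.60 at 24 h and within -1.16 to 0.62 at 48 h. The plot of changes by member sets these beside Capn6, which was chosen for its change.

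**Figure D3:**
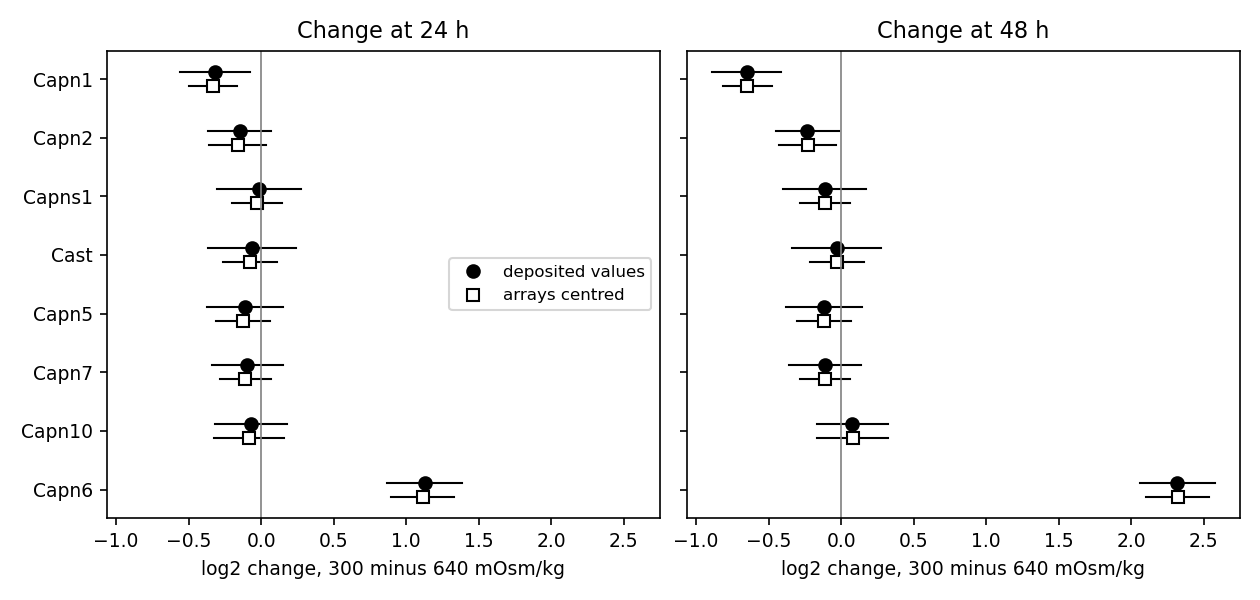
Difference in log2 level between 300 and 640 mOsm/kg for the 8 members at 24 h (left) and 48 h (right). Symbols are limma estimates from deposited (filled circles) and centred (open squares) values, lines 1 SE to each side, 3 arrays per group; Capn6 lies at 1.13 and 2.32 as deposited, and the other deposited estimates between -0.65 and 0.08.

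Another 8 calpain genes of 11 listed were measured: Capn3, Capn8, Capn9, Capn11, Capn12, Capn13, Capn15 and Capns2. Their differences between osmolalities ranged from -0.17 to 0.10 at 24 h and from -0.23 to 0.07 at 48 h, with 0 called and 0 under an unadjusted p of 0.05 in limma. The muscle protease Capn3 averaged 4.56 and 4.61 at 48 h, and the digestive tract calpain Capn8 7.12 and 7.13, at 640 and 300 mOsm/kg.

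With time, member levels moved with the array medians. From 24 h to 48 h at 640 mOsm/kg, all 7 tested members were lower as deposited, with a median of -0.43, while 95.2% of all genes were lower, with a median of -0.41. At 300 mOsm/kg all 7 tested members were lower, median -0.42, beside 94.1% of all genes and a median of -0.38. In limma 0 of 7 passed at either osmolality, with 1 (Capn5) and 2 (Capn1 and Capn5) under an unadjusted p of 0.05. Over all genes 0% passed in either comparison, although 4077 and 3369 genes had an unadjusted p under 0.05. Centring moved the median of all genes to 0.00 and 0.05 and those of the members to -0.02 and 0.01. With arrays centred 0 members passed, against 0.138% of all genes at 640 and 0.255% at 300 mOsm/kg. Deviations of same-numbered arrays at 300 mOsm/kg correlated between 0.116 and 0.459 across times. With that number as a block over all arrays, 4 genes passed at 300 mOsm/kg, none of them a member. The block also joined same-numbered arrays of different osmolality. There, replicates 1 and 3 correlated at -0.125 and -0.206 at 24 h and at -0.231 and -0.222 at 48 h. Capn1 and Capn5 did not overlap between times at 300 mOsm/kg, where 23.9% of all genes did not.

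Capn5 had the lowest change with time of the members, -0.66 ± 0.261 (SE) at 640 and -0.67 ± 0.261 at 300 mOsm/kg. Centred, the changes were -0.24 and -0.23. Leaving out a low-median array made some of these pass: Capn5 at 640 was -0.87 (limma, adjusted p = 0.0400) without replicate 3 at 24 h. Without replicate 1 at 24 h and 300 mOsm/kg, Capn5 was -0.87 (limma, adjusted p = 0.0396) and Capn1 was -0.76 (limma, adjusted p = 0.0406). Without those arrays 3891 and 3390 of all genes passed, up from 0.

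The members differed in how much of their spread followed the array medians. Centring lowered the SD within groups from 0.393 to 0.182 for Capns1, from 0.428 to 0.218 for Cast, from 0.310 to 0.181 for Capn7 and from 0.290 to 0.166 for Capn1. Capn6 went from 0.332 to 0.280. Capn2 (0.233 and 0.236) and Capn10 (0.308 and 0.334) were not tightened. The median over all genes went from 0.301 to 0.250.

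Over the 12 centred arrays no member followed Capn6 closely. Pearson correlations with Capn6 were -0.580 for Capn1, -0.392 for Capn5, -0.367 for Capn7, -0.175 for Cast, -0.150 for Capn2, 0.107 for Capns1 and 0.196 for Capn10. These describe 12 arrays that share the 4 groups, and carry no test. Among all genes the 5 most alike were Acta1 (0.954), Mark1 (0.952), Fbln2 (0.947), Postn (0.944) and Scrn1 (0.941). Acta1 encodes skeletal muscle actin, Mark1 a kinase of microtubule-associated proteins, Fbln2 and Postn proteins of the extracellular matrix, and Scrn1 secernin. Their differences between osmolalities at 48 h were 1.63 ± 0.230 (SE) for Acta1, 1.495 ± 0.241 for Fbln2, 1.22 ± 0.205 for Postn, 1.07 ± 0.289 for Scrn1 and 0.37 ± 0.218 for Mark1. Likeness to Capn6 chose these genes, so the differences carry no test. Most opposite were Dusp6 (-0.952), a phosphatase of ERK, Tm7sf2 (-0.940), a sterol reductase, and Emp1 (-0.913), a membrane protein. Their differences at 48 h were -0.89 ± 0.303, -1.13 ± 0.243 and -0.62 ± 0.240 (SE), again without a test. The choice of names depended on the scale: deposited values gave 3 of the same 5 and 0 of the same 3, and Spearman's coefficient 1 of 5 and 1 of 3.

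**Figure D4:**
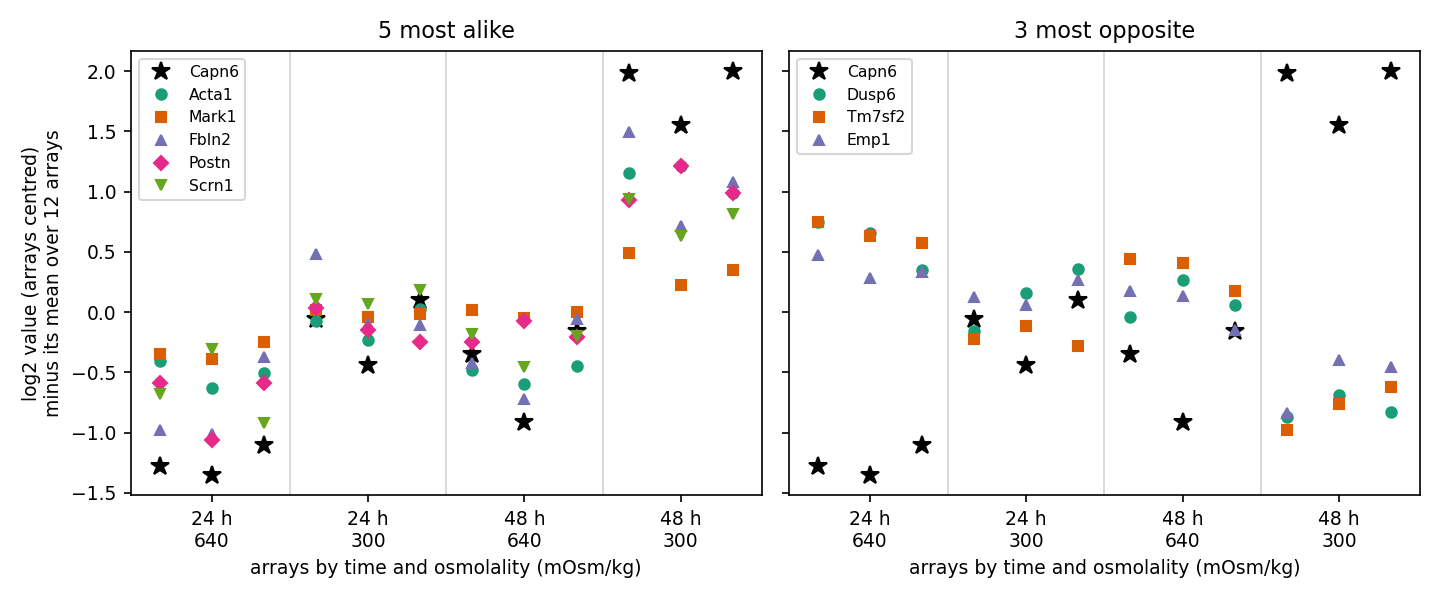
Capn6 (stars) with the 5 genes most alike (left) and the 3 most opposite (right) over 12 arrays, 3 per group, as log2 value with the array median removed and minus the gene's own mean. Every array is a column and the replicates within a group have no order; at 48 h and 300 mOsm/kg the genes on the left lie above their own means and those on the right below, and the Pearson correlations range from 0.941 to 0.954 and from -0.952 to -0.913.

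On chromosome X the measured genes next to Capn6 were Acsl4, Tmem164, Chrdl1 and Pak3 on one side and Dcx, Alg13l1, Trpc5 and Lhfpl1 on the other. Of these 8, 1 rose at 48 h and 0 were called at 24 h, beside 0.717% and 0.0896% of all genes. The gene that rose was Dcx, doublecortin, which like Capn6 protein binds microtubules and whose annotated body begins 25.3 kb from that of Capn6 on the side of the promoter printed above. At 48 h Dcx read 6.45, 6.73 and 7.18 at 640 mOsm/kg and 8.26, 8.44 and 7.88 at 300. These groups were apart by 1.41 ± 0.303 (SE), or 2.65-fold (limma, adjusted p = 0.0487). At 24 h it read 7.60, 7.54 and 6.75 at 640 and 7.16, 7.94 and 8.15 at 300, which overlapped, with a difference of 0.45 ± 0.303 (SE). The call at 48 h was narrow. It held with arrays centred (limma, adjusted p = 0.000803) and under the other settings that kept all 3 arrays a group, and was lost when any array at 48 h was left out, the change then lying between 1.24 and 1.61. The Pearson correlation of Dcx with Capn6 over the 12 centred arrays was 0.883. Differences at 48 h of the other 7 neighbours ran from -0.45 for Tmem164 to 0.19 for Pak3, a kinase that acts on the cytoskeleton. Pak3 is the nearer neighbour, with its annotated body 6.43 kb from that of Capn6 on the far side from the promoter, and its differences were 0.13 ± 0.389 and 0.19 ± 0.389 (SE) at 24 h and 48 h.

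**Figure D5:**
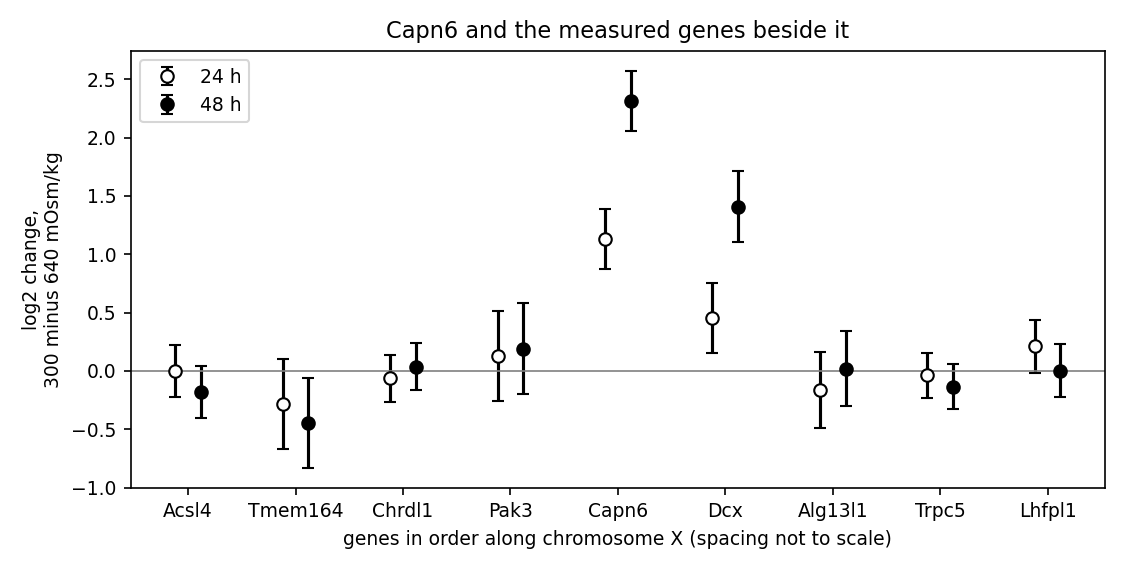
Difference in log2 level between 300 and 640 mOsm/kg for Capn6 and the 4 nearest measured genes on each side, in chromosome order. Circles are limma estimates from deposited values (open 24 h, filled 48 h, 3 arrays per group) and whiskers the SE; Capn6 and Dcx lie at 2.32 and 1.41 at 48 h, the rest between -0.45 and 0.19.

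Genes of calpain biology around the family were read as 4 lists. Of 24 listed calpain substrates of cytoskeleton, adhesion and signalling, 23 were measured, 0 passed at 24 h and 1 rose at 48 h, with medians of 0.05 and 0.15. For these lists and the marker lists that follow, the share of all genes called was 0.0896% at 24 h and 0.717% at 48 h. The gene that rose was Itgb3, the integrin beta-3 subunit, whose tail calpain can cut. Itgb3 at 48 h read 7.31, 7.58 and 8.01 at 640 mOsm/kg and 9.03, 9.01 and 8.42 at 300, a difference of 1.18 ± 0.256 (SE; limma, adjusted p = 0.0495). At 24 h it read 7.93, 7.92 and 7.32 at 640 and 8.66, 8.81 and 9.16 at 300. That gap was 1.16 ± 0.256 (SE), which passed with arrays centred (limma, adjusted p = 0.0167) and not as deposited (adjusted p = 0.188, limma). The 48 h call was lost with the replicate number as a block (limma, adjusted p = 0.0572), with a robust, trended variance (adjusted p = 0.0638, limma) and without any 1 array at 48 h. Actn1, the actin crosslinker alpha-actinin, differed by 0.42 and 0.60 and did not pass.

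Of 25 listed microtubule genes and partners of Capn6 protein, all were measured and 0 passed at either time. The difference was above 0 for 20 of the 25 at each time, with medians of 0.10 and 0.15, while 55.7% of all genes were below 0 at 24 h and 45.8% at 48 h. The stathmin gene Stmn1, for a tubulin-binding protein, stood at 0.32 and 0.41, and the tubulin genes Tubb6 and Tuba1a at 0.31 at 24 h and 0.32 at 48 h. Calcium entry, store and binding genes were measured for 21 of 25, with 0 passing and medians of -0.07 and -0.06. Itpr2, a calcium release channel of the endoplasmic reticulum, was at -0.36 and -0.56. Of 20 listed peptidases and cystatins outside the calpain family 18 were measured, 0 passed, and the medians were 0.08 and 0.14. The lysosomal protease Ctsl stood at 0.35 and 0.45, Casp1 at 0.44 at 24 h and Casp6 at 0.41 at 48 h. All-gene medians were -0.02 and 0.02. A gene list's shift from the median over all genes was not tested.

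Markers of other cell types that the cultures could hold were read beside Capn6, because these are bulk samples in which more cells of a type and more RNA per cell cannot be told apart. Smooth muscle markers (Acta2, Myh11, Cnn1, Tagln, Des, Lmod1) were above 0 for 5 of 6 at 24 h and 6 of 6 at 48 h, with medians of 0.24 and 0.39, and 0 passed. Cnn1, calponin, was at 1.11 ± 0.327 (SE) at 48 h (limma, adjusted p = 0.255), and passed with arrays centred, at 1.12 ± 0.247 (limma, adjusted p = 0.0288). The log2 of their summed level was 12.3 to 12.6 at 48 h and 640 mOsm/kg and 12.9 to 13.2 at 300, without overlap. At 24 h it was 11.9 to 12.9 and 12.1 to 13.1. Fibroblast markers had 0 of 7 called at either time, with 4 above 0 and 3 below at each time and medians of 0.07 and 0.18. Their log2 summed levels at 24 h were 10.8 to 11.1 and 11.2 to 11.4, without overlap as deposited. With arrays centred these overlapped, at 3.34 to 3.90 for 640 and 3.70 to 4.28 for 300 mOsm/kg. At 48 h the deposited sums were 11.4 to 11.8 and 11.5 to 12.5.

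Of 7 skeletal muscle markers, 1 rose at 48 h, Acta1, and the list's median was -0.06. Acta1 was named above for its likeness to Capn6, so its rise is a description and no p is given. Of 5 trophoblast markers measured, 1 rose at 48 h, the prolactin family gene Prl8a9, by 1.96 ± 0.371 (SE; limma, adjusted p = 0.0192), with a list median of 0.09. Log2 summed levels of the skeletal muscle list at 48 h were 8.24 to 8.41 at 640 and 9.09 to 9.32 at 300 mOsm/kg, and those of the trophoblast list 6.49 to 6.67 and 7.26 to 7.39. Such sums add probe sets of unequal brightness, and these lists' medians stayed near 0 while Acta1 went from a mean of 7.07 to 8.70 and Prl8a9 from 4.40 to 6.36. Among 7 intercalated cell markers Rhbg, an ammonia transporter, fell by 1.04 ± 0.196 (SE) at 48 h (limma, adjusted p = 0.0198). The other markers of that list were not called, 4 of the 7 were above 0 and 3 below, and the median was 0.05. Markers of the thick ascending limb, endothelium and macrophages had 0 called at either time as deposited. Slc12a1, the cotransporter of the thick ascending limb, was at -0.92 ± 0.255 (SE) at 24 h and -1.17 ± 0.255 at 48 h (limma, adjusted p = 0.494 and 0.0534). Csf1r, the macrophage growth factor receptor, was at -0.70 ± 0.235 (SE) at 48 h. With arrays centred both fell at 48 h, Slc12a1 with an adjusted p of 0.00737 and Csf1r of 0.0288 (limma). The part of these markers in the Capn6 result was not tested.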

How the data were processed

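Expression was measured on 12 arrays of Affymetrix Rat Gene 1.0 ST. The deposited values are log2 expression levels per probe set, made by the authors with RMA in Affymetrix Power Tools, per the submitters' processing notes; versions are not given in the sources used here. As a method RMA summarises and normalises arrays together and keeps no counts, so precision rests on the number of arrays. The array medians here were not alike, running from 6.81 to 7.58. Whether all 12 arrays were normalised together was not checked. Groups follow the sample titles; short codes in some descriptions give other osmolalities.

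Of 27596 probe sets, 15310 had 1 gene symbol in GEO's platform annotation, 323 had several and 11963 were not listed. The brightest probe set per gene gave 14506 genes. limma 3.58.1 in R 4.3.3 was fitted to the deposited log2 values with 1 mean per group (8 residual degrees of freedom), with Benjamini-Hochberg adjustment over all genes and a threshold of 0.05. Intervals are 95%. The fit was tested on simulated data with independent noise for each gene and array. That simulation held neither the shifts of array medians nor the shared deviations seen here, so it cannot speak to them. Members and lists were chosen with earlier results of these data known. Named genes were every member, other calpain genes, the 5 genes most and 3 least correlated with Capn6, the 4 measured genes on each side of it in RefSeq (GRCr8), and from each list up to 4 called genes, otherwise 2 of smallest p.

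Alternatives were array centring, quantile normalisation, omission of the dimmest 30% of genes, trended robust variances, averaging the probe sets of a gene, a replicate block, only the groups compared, omission of each array, and, added after seeing the data, omission of both low-median arrays at 24 h. In the pairing check, deviations of same-numbered arrays correlated between 0.116 and 0.459 across times at 300 mOsm/kg, where every pair exceeded 0.1 and the numbers were taken to pair; the pairing comes from the data, not from the labels.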

Additional observations from a re-analysis of the deposited data

How the results depend on the processing

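For the 8 members, 34 changes were recomputed to give 460 alternative values, of which 423 kept direction and side of the threshold, 3 passed only without a low-median array, 4 of Capn6 with time moved by more than the spread and 30 changed sign, 20 of these with an array left out. Genes called at 24 h, 13 as deposited, numbered 95 centred, 110 after quantile normalisation, 22 with the replicate block, 3 with only the groups compared, 20 without both low-median arrays, and 4 to 24 with an array left out. At 48 h the 104 became 269, 277, 217 with only the groups compared, and 51 to 66. For the difference of changes, 0 became 4, 2, 1 with trended robust variances, 2 with the replicate block, and 0 to 3. For time at 640 mOsm/kg 0 became 20, 21 and 0 to 3891; at 300 mOsm/kg it became 37, 49, 5 with trended robust variances, 4 with the replicate block, 8 with only the groups compared, and 0 to 3390. The block, given above where it moved a count by over 1.5 times, changed no member's call. Across osmolality, deviations of same-numbered arrays correlated between -0.206 and 0.844 at 24 h and between -0.231 and 0.795 at 48 h. Only replicate 2 correlated best with its own number. Replicate 1 at 640 correlated best with replicate 3 at 300 mOsm/kg, at 0.576 (24 h) and 0.631 (48 h). Replicate 3 at 640 correlated best with replicate 1 at 300 mOsm/kg, at 0.825 and 0.780. Across times at 640 mOsm/kg r was 0.0332 to 0.455. The labels give same-numbered samples only a shared number, and no other pairing, the crossed one included, was fitted. Whether calls would move under the crossed pairing was not tested. The cause of the moved counts was not tested.

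Signs that changed were of values that did not pass. With time at 640 mOsm/kg, centring gave Capn1 0.20 (0.11 after quantile normalisation), Capn2 0.082 and Capns1 0.26, while quantile normalisation left Capn2 at -0.060 and Capns1 at -0.087. At 300 mOsm/kg it gave Capn2 0.014, Capns1 0.18, Capn10 0.092 (0.087 after quantile normalisation) and Cast 0.033 (0.0016), while quantile normalisation left Capn2 at -0.097 and Capns1 at -0.15. The cause was not tested. With an array left out, the osmolality difference at 24 h ranged from -0.32 to 0.090 for Capn5, -0.24 to 0.12 for Capn7, -0.18 to 0.040 for Capn10, -0.33 to 0.28 for Capns1 and -0.35 to 0.22 for Cast; at 48 h from -0.30 to 0.055 for Capn5, -0.28 to 0.052 for Capn7, -0.12 to 0.29 for Capn10 and -0.20 to 0.10 for Cast; and with time at 640 mOsm/kg Capns1 from -0.48 to 0.079.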
